A study of Mus musculus with 4 samples.

Results

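CC chemokines are small secreted proteins, named for a pair of adjacent cysteines, that draw leukocytes along a gradient. The listed family held 10 members, and 9 of them were measured here, each by 1 probe set, out of 909 genes with a symbol on the array (1246 probe sets in all). They were Ccl3, Ccl4, Ccl5, Ccl7, Ccl8, Ccl9, Ccl11, Ccl17 and Ccl20. Ccl2 is not analysed here. The members were chosen by gene family, with the differences between streptozotocin and control on these same arrays already known. Every streptozotocin difference below is therefore a description, with no test of the members.

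The cells were vascular smooth muscle cells of wild-type mice, which lie in the walls of arteries and contract to set the width of the vessel. All were grown in osteogenic medium, under which they take on a bone-like character, so no group is free of that medium. The control arm held 2 arrays, and the other arm held 2 arrays of cells given 0.4 mM streptozotocin, a glucosamine-bearing nitrosourea used to destroy pancreatic beta cells. All 4 titles also carry the mark 3w, whose meaning the labels do not give. Each arm held the cell samples WT2 (replicate 1) and WTA (replicate 2), called cultures here, which the labels do not tie to separate animals. Each culture thus had 1 array with the compound and 1 without, so within a culture no replicate spread was measured. The p-values of the streptozotocin fit without a block measure against the spread between these samples, which may be technical. In fits with both treatment and culture, the error is how far the streptozotocin differences of the cultures disagree. Values are log2 expression values of a probe set. In RNA from whole cultures, fewer cells making a transcript and less transcript per cell cannot be told apart.

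The family signals through Ccr receptors on leukocytes. Ccl7 and Ccl8 belong with Ccl2 to the monocyte chemoattractant proteins, and mouse Ccl8 is a ligand of Ccr8. Ccl3, Ccl5 and Ccl9 bind Ccr1, Ccl4 is a close relative of Ccl3, Ccl11 (eotaxin) draws eosinophils through Ccr3, Ccl17 binds Ccr4, and Ccl20 binds Ccr6. Vascular smooth muscle cells are known to make monocyte chemoattractants under inflammatory stimuli. In the RefSeq gene table Ccl7, Ccl11, Ccl12 and Ccl8 neighbour each other in that order. Ccl5, Ccl9, Ccl6, Ccl3 and Ccl4 form a separate cluster on the same chromosome.

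RefSeq promoter entries were found for 5 members. The 250 bases before the gene start are printed for 3 of them: Ccl8, higher with streptozotocin in both cultures, Ccl9, whose cultures differed most, and Ccl3, among the dimmest here. They lie at chr11:82114935-82115184 (plus strand), chr11:83578637-83578886 (minus strand) and chr11:83649379-83649628 (minus strand) in GRCm38.p6, and run 5′ to 3′ towards the gene. Capitals mark matches to any of 4 motifs searched on both strands: the TATA box TATAAA, the AP-1 motif TGANTCA, the STAT motif TTCNNNGAA and the NF-kB consensus.
Ccl8: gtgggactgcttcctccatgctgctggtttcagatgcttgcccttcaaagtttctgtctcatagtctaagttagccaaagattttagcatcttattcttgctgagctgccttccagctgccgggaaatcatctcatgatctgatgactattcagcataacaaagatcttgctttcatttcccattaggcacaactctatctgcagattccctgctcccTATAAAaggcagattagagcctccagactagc
Ccl9: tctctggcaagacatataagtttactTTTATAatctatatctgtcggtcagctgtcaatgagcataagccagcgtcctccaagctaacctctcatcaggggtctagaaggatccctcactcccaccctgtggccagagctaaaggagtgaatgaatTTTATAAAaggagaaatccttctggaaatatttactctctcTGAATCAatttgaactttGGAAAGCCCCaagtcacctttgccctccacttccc
Ccl3: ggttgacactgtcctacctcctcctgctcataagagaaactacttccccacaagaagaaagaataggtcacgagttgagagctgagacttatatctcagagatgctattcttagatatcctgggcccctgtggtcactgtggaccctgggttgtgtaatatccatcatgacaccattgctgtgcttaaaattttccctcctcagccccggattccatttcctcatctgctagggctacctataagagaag

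The Ccl8 window held a TATA box match from 32 to 27 bases before the start and no other match. The Ccl9 window held an NF-kB match from 35 to 26 bases before the start, on the minus strand of the window, and an AP-1 match from 53 to 47 bases before it. It also held 3 TATA matches, of which those at 94 to 89 and 92 to 87 bases before the start overlap. The Ccl3 window held none of these letters. Of the windows not printed, that of Ccl20 held an NF-kB match from 80 to 71 bases before the start, and that of Ccl17 a STAT match from 99 to 91. Ccl20 was dim like Ccl3, with a range over the arrays of 0.23 against 0.09 for Ccl3. Among 32807 windows of the same length, 7.25% held the NF-kB consensus, 6.75% the AP-1 motif, 7.02% the STAT motif and 12.4% the TATA box. Such a match describes the letters and is not a shown binding site.

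The family split into members that varied between the arrays and members that did not. Ccl5, Ccl7, Ccl8, Ccl9 and Ccl11 spanned at least 1 log2 unit over the 4 arrays, 5 of 9 members, where 9.39% of all probe sets did so. The other 4, Ccl3, Ccl4, Ccl17 and Ccl20, spanned 0.09 to 0.24, against a median of 0.26 over all probe sets. In WT2 the 5 varying members were all at least 1.5-fold higher with streptozotocin, and in WTA only Ccl8 was, while Ccl9 and Ccl11 were at least 1.5-fold lower. The background is 4.82% of probe sets at least 1.5-fold higher and 2.49% lower in WT2, and 0.642% higher and 1.69% lower in WTA. Because the choice of members used this contrast, nothing is read from these counts.

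**Figure D1:**
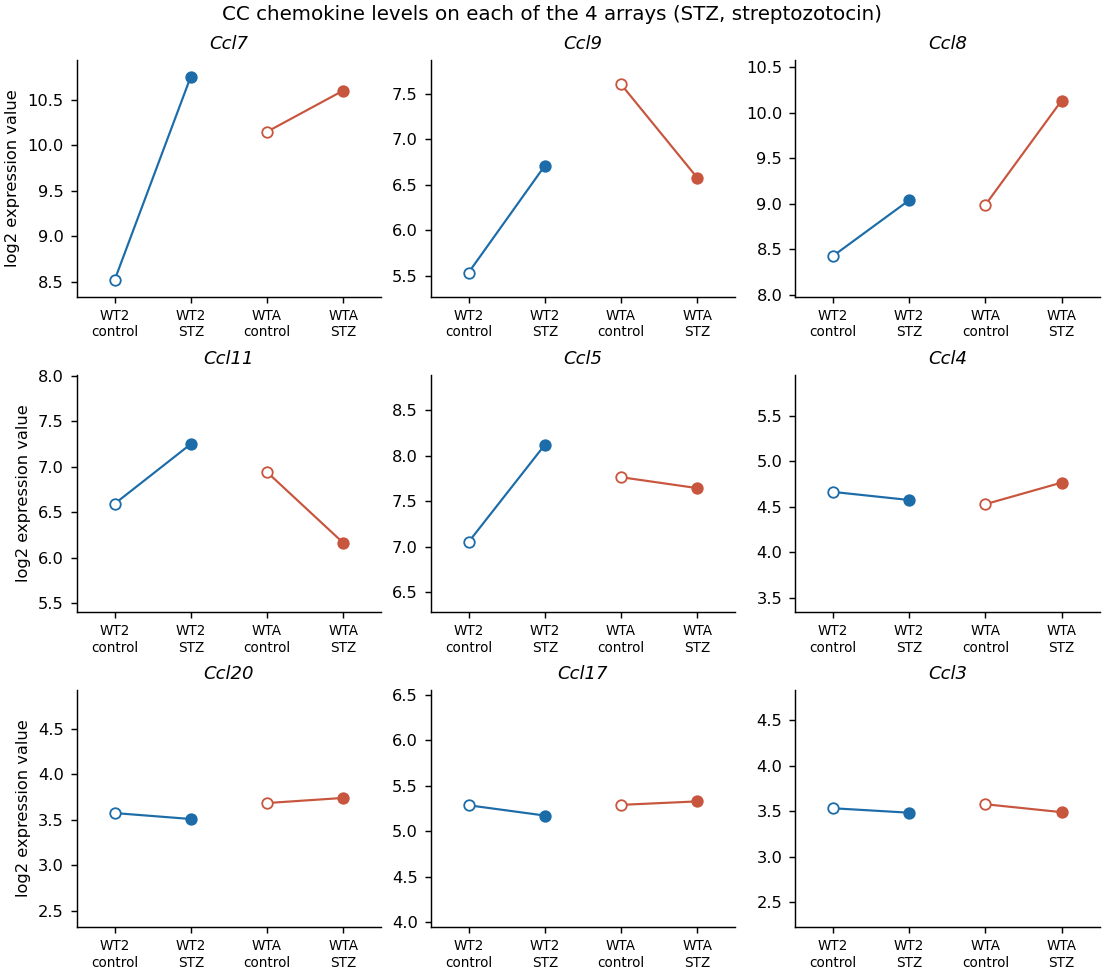
Log2 expression value (vertical axis, a window of equal height in every panel) of the 9 measured CC chemokines on each of the 4 arrays. Open points are control arrays, filled points streptozotocin arrays, and lines join the arrays of 1 culture; Ccl7 is at 8.52 and 10.76 in WT2, and Ccl9 goes opposite ways in WT2 and WTA.

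Ccl7 attracts monocytes through Ccr2 and other receptors. Its log2 value was 8.52 in the WT2 control, 10.76 in WT2 with streptozotocin, 10.15 in the WTA control and 10.60 in WTA with streptozotocin. Both streptozotocin arrays lay above both control arrays, and the WT2 control stood far below the other 3 arrays, which ran from 10.15 to 10.76. The difference was 2.24 in WT2, a 4.71-fold higher value, and 0.45 in WTA. In WT2 this was place 6 of 1246 among the differences, counted from the highest, and in WTA place 18.

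The WT2 control array carried most of the Ccl7 difference. Its deviation from the median of the other 3 arrays was -2.08, and from the mean of the WTA pair -1.86. The WT2 streptozotocin array, in contrast, lay 0.38 above that WTA mean. Over both cultures Ccl7 averaged 10.68 ± 0.11 in treated and 9.33 ± 1.15 in untreated cells (SD, n = 2 each), a mean difference of 1.34. Without the WT2 control array it was 0.53, and without the WTA control array 2.16. The Ccl7 identifier carries an s mark, used where probes may match more than 1 transcript or gene, so a share from a close relative is uncertain.

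Ccl8 was the member with the same direction and at least 1.5-fold in both cultures. It read 8.42 in the WT2 control and 9.04 with streptozotocin, then 8.99 in the WTA control and 10.13 with streptozotocin. Both streptozotocin arrays were above both control arrays, but by a narrow margin between WT2 with streptozotocin and the WTA control. Its differences were 0.61 in WT2 and 1.15 in WTA. The WTA value was the highest difference of all 1246 probe sets in that culture, at place 1. The WT2 value stood at place 59.

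Here another array stood apart than for Ccl7. The WTA streptozotocin array lay 1.15 above the median of the other 3, and in WT2 the control array was again the one farther from the WTA mean, by -1.13. Ccl8 measured 9.58 ± 0.77 with streptozotocin and 8.70 ± 0.40 without (SD, n = 2 each), a mean difference of 0.88. Leaving out 1 array gave Ccl8 differences from 0.33, without the WTA streptozotocin array, to 1.43, without the WT2 streptozotocin array. Ccl7 and Ccl8 were the only members whose arms did not overlap upwards, 2 of 9, where 10.8% of all probe sets had both streptozotocin arrays above both controls. For higher values at 1.5-fold in both cultures the count was 1 of 9 (Ccl8), with a background of 0.562%. With quantile normalization Ccl8 in WT2 came to 0.58, under that limit, and the count was 0.

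Ccl5 (RANTES) attracts T cells and monocytes. Its values were 7.05 in the WT2 control, 8.12 in WT2 with streptozotocin, 7.77 in the WTA control and 7.65 in WTA with streptozotocin. The WT2 control was lowest and the WTA pair nearly level, so the arms overlapped. The Ccl5 difference was 1.07 in WT2 (2.10-fold) and -0.12 in WTA. The deviation of the WT2 control from the median of the other 3 arrays was -0.71. Without that array the mean difference of Ccl5 was 0.12, against 0.47 with all arrays.

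Ccl9, a mouse chemokine of macrophages, myeloid cells and osteoclasts, went opposite ways in the cultures. It read 5.53 in the WT2 control and 6.71 with streptozotocin, but 7.60 in the WTA control and 6.58 with streptozotocin. The control arrays were thus the lowest and the highest of the 4, with the streptozotocin arrays near each other between them. In WT2 Ccl9 was 2.26-fold higher with the compound, 1.17 on the log2 scale, and in WTA 2.04-fold lower, at -1.03. These were place 31 and place 6 of 1246 by absolute size.

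For Ccl9 the spread lay in the control arm. The control value was 6.57 ± 1.46 and the streptozotocin value 6.64 ± 0.09 (SD, n = 2 each), so the mean difference of 0.07 averaged out a pair of opposite ones. In the WT2 pair the control was the array apart, at -1.56 from the WTA mean. In the WTA pair it was also the control, 1.48 above the WT2 mean. Without the WT2 control the mean difference was -0.96, and without the WTA control 1.11, so either control array set its direction. Its identifier carries the s mark as well.

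Ccl11 had the same split with other arrays apart. Its values were 6.59 in the WT2 control, 7.25 in WT2 with streptozotocin, 6.94 in the WTA control and 6.17 in WTA with streptozotocin. Here the controls were near each other and the streptozotocin arrays were the highest and the lowest. The difference of Ccl11 was 0.66 within WT2 and -0.78 within WTA, and in both pairs the streptozotocin array was farther from the other culture's mean (0.70 in WT2, -0.76 in WTA). Its arms were 6.71 ± 0.77 with streptozotocin and 6.77 ± 0.25 without (SD, n = 2 each). The mean difference of -0.06 became 0.48 without the WTA streptozotocin array and -0.60 without the WT2 streptozotocin array.

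The neighbours Ccl7, Ccl11 and Ccl8 therefore did not share a direction in WTA, where they differed by 0.45, -0.78 and 1.15. In WT2 they differed by 2.24, 0.66 and 0.61, all positive. In the separate cluster, Ccl5 and Ccl9 differed by 1.07 and 1.17 in WT2 and by -0.12 and -1.03 in WTA. No test of the cultures' differences against each other can be made, since each rests on 1 array per arm.

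**Figure D2:**
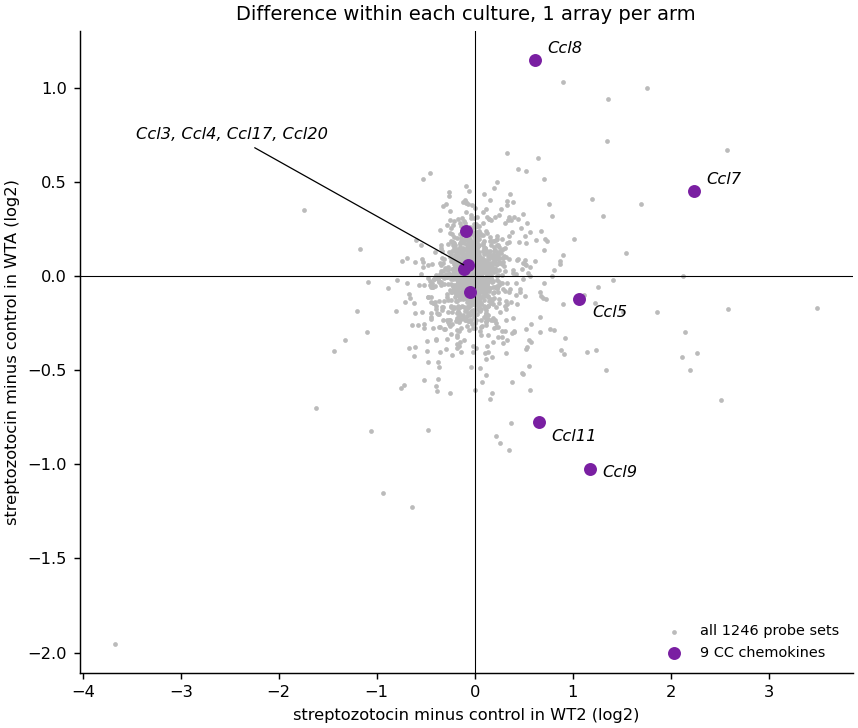
Streptozotocin minus control on the log2 scale in WT2 (horizontal axis) and in WTA (vertical axis), with all 1246 probe sets in grey and the 9 CC chemokines in purple. All 5 varying members lie to the right of 0, while in WTA they run from -1.03 for Ccl9 to 1.15 for Ccl8.

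The remaining 4 members gave flat, low values. Ccl3, a ligand of Ccr1, read 3.53 and 3.48 in WT2 (control, then streptozotocin) and 3.57 and 3.49 in WTA. Ccl20, which draws cells that carry Ccr6, read 3.57 and 3.51 in WT2 and 3.68 and 3.74 in WTA. Both lay below the lower quartile of all 4 arrays (4.39 to 4.40). No background level was measured, so whether either transcript was present cannot be told from these values.

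Ccl4 read 4.66 and 4.57 in WT2 and 4.53 and 4.76 in WTA. Ccl17, which attracts T helper cells through Ccr4, read 5.28 and 5.17 in WT2 and 5.29 and 5.33 in WTA. These 2 members lay between the lower quartile and the median of every array (medians 5.83 to 5.87). Of the 4, only Ccl3 had both streptozotocin arrays below both controls, differing by -0.05 in WT2 and -0.09 in WTA, where 13.8% of all probe sets did so. By contrast Ccl5, Ccl7, Ccl8 and Ccl11 were above the median on all arrays, and Ccl9 was so on all but the WT2 control.

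Over the 9 members the median difference was 0.61 in WT2 and 0.04 in WTA, beside -0.02 and 0.00 over all probe sets. In limma's fit of streptozotocin against control without a block, 0% of all probe sets passed an adjusted p of 0.05, and with the replicate block (arrays paired by culture) again 0%. At an unadjusted p under 0.05 these fits gave 25 and 80 of 1246 probe sets. The choice of members used this contrast, so nothing is read from it about them.

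The choice of members did not use the comparison of the cultures, which was tested. Its error is the disagreement between the control arrays and the streptozotocin arrays on that difference. No cell sample was replicated within an arm. For Ccl8 WTA exceeded WT2 by 0.83 (SE 0.17), with 0.56 between the control arrays and 1.09 between the streptozotocin arrays. It did not pass (limma adjusted p = 0.135). Ccl9 differed by 0.97 (SE 0.58, adjusted p = 0.517), from 2.07 between the controls and -0.13 between the streptozotocin arrays. Ccl7 differed by 0.74 (SE 0.47, adjusted p = 0.555), likewise with 1.63 between the controls and -0.15 between the streptozotocin arrays.

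Ccl11 was the member with a lower mean in WTA, by -0.37 (SE 0.38, adjusted p = 0.728). In all, 0 of 9 members passed this test, where 2.25% of all probe sets did. At an unadjusted limma p under 0.05 the counts were 1 of 9 members (Ccl8) and 210 of 1246 probe sets. The cultures did not overlap for Ccl17 and Ccl20, with both WTA arrays above both WT2 arrays in 2 of 9 members and in 21.3% of all probe sets. These differences were small, 0.08 for Ccl17 and 0.17 for Ccl20.

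The WT2 control array was the lowest of the 4 for Ccl5, Ccl7, Ccl8 and Ccl9. Among the 117 probe sets that spanned at least 1 log2 unit, it was the lowest for 49.6% and the array farthest from the median of the others for 53.8%. The WTA streptozotocin array, the lowest one for Ccl11, was the lowest for 36.8%. Over all probe sets the SD of the differences was 0.402 in WT2 and 0.220 in WTA. The part of that array in the chemokine differences of WT2 cannot be told apart from a low level in the untreated WT2 cells.

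The listed CC chemokine receptors gave low values. Of 11 such genes 10 were measured, at 2.82 to 5.55, all below the median of every array and 7 below the lower quartile on all 4. Their ranges over the arrays were 0.09 to 0.44, and 0 passed in the streptozotocin or the culture fit. Ccr1l1 had the widest range, from 3.45 in the WTA control to 3.88 in the WT2 control. Ccr4, the receptor of Ccl17, had differences of -0.27 (WT2) and -0.13 (WTA), Ccr9 of 0.22 and -0.17, and Ccr6, the receptor of Ccl20, of -0.07 and 0.07.

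Ackr4, which takes up chemokines such as Ccl19, Ccl21 and Ccl25 without signalling for migration, was the 1 scavenger receptor of 3 listed that was measured. It read 6.09 and 8.67 in WT2 and 6.22 and 6.89 in WTA (control, then streptozotocin), and did not pass either fit.

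Among CC chemokines outside the set, 8 of 14 listed were measured and 0 passed in either fit. Their ranges ran from 0.17 to 0.60, so none spanned 1 log2 unit. Of these 8 genes, 5 lay below the median of every array. The members were chosen with their differences on these arrays known, so no contrast with their ranges is drawn. Ccl27a, a skin chemokine, differed by 0.11 (WT2) and -0.41 (WTA), and Ccl25, a chemokine of thymus and gut, by 0.33 and 0.40. Another probe set of Ccl27a, with a lower mean, differed by 0.10 (WT2) and -0.17 (WTA). Ccl24, another ligand of Ccr3, differed by -0.16 and -0.06. Ccl21c, whose copies are nearly identical, differed by 0.22 and 0.02. Ccl12, named for its place rather than its range, is a monocyte chemoattractant that sits between Ccl11 and Ccl8 in the genome. It read 3.08 to 3.25, below the lower quartile on all arrays.

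A list of 12 measured inflammatory genes of stromal cells was set beside the members, and 0 passed in either fit. Their median difference was 0.39 in WT2 and 0.03 in WTA, and 4 of the 12, Icam1, Cxcl1, Cxcl5 and Il6, were at least 1.5-fold higher in WT2 and 0 in WTA. Icam1, an adhesion molecule for leukocytes, read 7.73 and 9.28 in WT2 and 9.80 and 9.93 in WTA. Cxcl1, a neutrophil attractant, read 5.29 and 7.40 in WT2 and 6.71 and 6.28 in WTA. The WT2 control was the lowest array for 9 of the 12 genes. No share over all probe sets was counted for this, so nothing is read from it. The share given above covers only probe sets spanning at least 1 log2 unit, as 4 of these 12 genes did.

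Cxcl5, also a neutrophil attractant, had the WT2 streptozotocin array apart instead, at 8.73 against 6.67 to 6.86 elsewhere. Il6, a cytokine of acute inflammation, read 6.16 and 7.86 in WT2 and 7.56 and 7.94 in WTA. Like Ccl7, it had the WT2 control well below the other 3 arrays.

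**Figure D3:**
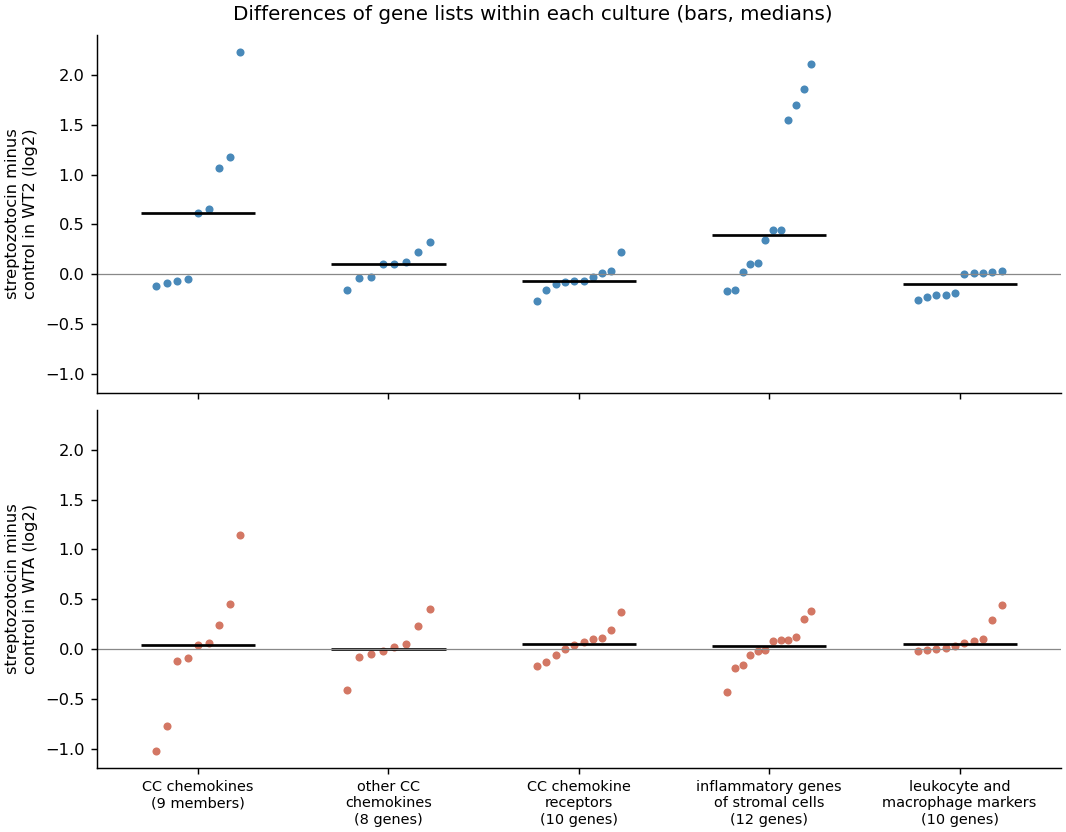
Streptozotocin minus control on the log2 scale in WT2 (upper panel) and WTA (lower panel), with 1 point per gene and a bar at each list's median. The highest WT2 points are Ccl7 at 2.24 among the 9 CC chemokines and Cxcl1 at 2.11 among the 12 inflammatory genes. The WT2 medians of these lists are 0.61 and 0.39. The 10 receptors and 10 leukocyte markers stay between -0.27 and 0.45 in both panels.

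Markers of cells other than smooth muscle were read beside these values. Of 20 leukocyte and macrophage markers 10 were measured, 9 of them below the median of every array. The macrophage marker Adgre1 read 2.79 to 3.16, below the lower quartile on all arrays. The lectin gene Clec10a read 4.58 to 4.87 and the sialic acid receptor gene Siglec1 5.24 to 5.47. Csf1r, the receptor of macrophage growth factor, was brighter at 7.40 to 7.92, and differed by -0.26 (WT2) and 0.45 (WTA). The median difference of the 10 was -0.09 in WT2 and 0.05 in WTA, and their summed linear signal ran from 365 to 446 over the arrays, lowest in WT2 with streptozotocin.

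Endothelial markers were measured for 3 of 8 genes, of which Pecam1 and Sele lay below the lower quartile on all arrays, with ranges of 0.20 and 0.27. Emcn read 4.64 and 4.76 in WT2 and 6.17 and 5.65 in WTA. Of 7 smooth muscle markers only Pdgfrb was measured (9.38 to 9.68), so the labelled cell type could be checked on that gene alone. It is also made by fibroblasts and pericytes. The fibroblast markers Pdgfra, Dcn and Lum, 3 of 5 listed, were all bright, at 9.19 to 12.73, and all lower with streptozotocin in both cultures, Lum by -1.32 in WT2 and -0.34 in WTA. The part of any of these cells in the chemokine differences was not tested.

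Profiles were compared over the 4 arrays by the root mean square distance between log2 values, each gene minus its own mean. Of genes outside the set, Ccl7 was nearest to Il6 (0.19), Has2 (0.36), a hyaluronan synthase, and Icam1 (0.41). Ccl8 was nearest to the selectin gene Selp (0.20), the receptor gene Met (0.23) and the interleukin 1 receptor subunit Il1rap (0.31). The Il1rap probe set used differed by 0.39 in both cultures, but another of that gene by 0.15 in WT2 and 0.01 in WTA. Selp read 5.65 and 5.98 in WT2 and 6.27 and 6.93 in WTA, so it shared the order of Ccl8 only in part: its WTA control lay above WT2 with streptozotocin, while those arrays were level for Ccl8.

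Ccl5 was nearest to the lectin gene Chodl (0.03), the channel gene Mcoln2 (0.11) and Il13ra1 (0.12), a receptor chain of interleukin 13. Ccl9 was nearest to the sialyltransferase gene St6galnac2 (0.25), the bone morphogenetic protein gene Bmp4 (0.33) and Il1rn (0.33), the interleukin 1 receptor antagonist. Ccl11 was nearest to Ahsg (0.16), which encodes fetuin-A, the decoy receptor gene Il1r2 (0.20) and Rbpj (0.22), the nuclear effector of Notch. With 4 arrays and 909 genes, near profiles are a description of these arrays.

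Among these 5 varying members, the nearest pair was Ccl5 and Ccl11, at 0.37, and the farthest was Ccl8 and Ccl11, at 0.91. Ccl7 and Ccl8 were at 0.63. The 3 listed genes of each were picked as the nearest of all, so their distances are not set against this one.

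**Figure D4:**
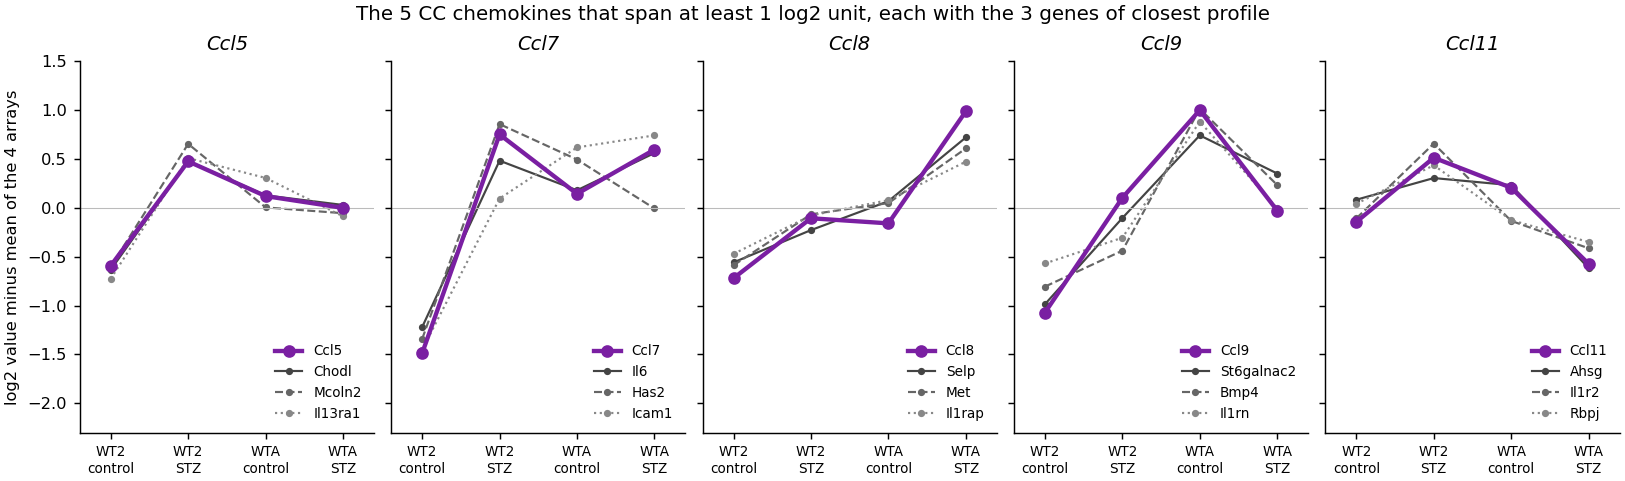
Log2 value minus the mean of the 4 arrays (vertical axis) for the 5 CC chemokines that span at least 1 log2 unit (thick lines), each with its 3 nearest genes outside the set (thin lines). Ccl7 runs with Il6 and Ccl8 with Selp at distances of 0.19 and 0.20, and the 5 members differ from each other in shape.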

How the data were processed

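RNA of 4 cell samples was measured on expression arrays. The authors deposited log2 values per probe set, and the submitters' processing notes name RMA. Its version and settings, and a genome build, are not given in these sources. RMA usually makes array distributions equal, so a shift shared by most genes would not show, and differences of dim probe sets are compressed. The number of arrays limits the precision.

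Accessions in the identifiers were matched without version to RefSeq's mouse gene table (GRCm38.p6, names only); 963 of 1246 probe sets had a symbol, and 283 had none here. A gene of the lists is not reported here and was left out of their counts. For the gene lists and the near profiles the probe set with the highest mean was used. Members, lists and rules were chosen with earlier results of these data known. Each list named every gene in the table, with values for the 4 of widest range. For the 3 nearest profiles, members spanning at least 1 log2 unit were used.

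The comparisons were fitted with limma 3.58.1 in R 4.3.3 (lmFit, eBayes, Benjamini-Hochberg over all probe sets, threshold 0.05) and checked on simulated data. Streptozotocin was fitted without a block, and the culture difference with treatment. Replicate numbers name the same cell sample in both arms, which pairs the arrays; same-numbered arrays deviated together (correlation 0.600 across probe sets). Alternatives were the replicate block, centring, quantile normalization, brighter probe sets alone, a trend with intensity, another threshold and each array left out.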

Additional observations from a re-analysis of the deposited data

Results flagged for a closer look

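For 6 members the difference between streptozotocin and control pointed opposite ways in the 2 cultures. Each rests on 1 treated and 1 untreated array, and the difference between the cultures was not tested. Opposite directions were not counted over all probe sets, so nothing is read from the number of members. Over all 1246 probe sets, 545 differences lay above 0 and 693 below in WT2. In WTA 616 lay above 0 and 622 below. The WTA difference minus the WT2 difference was -2.20 for Ccl9, -1.43 for Ccl11 and -1.19 for Ccl5 on the log2 scale. It was 0.33 for Ccl4, 0.15 for Ccl17 and 0.12 for Ccl20, the 3 dim members, whose differences within a culture did not exceed 0.24.

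The same held for 23 other genes named beside them, also untested and without a share over all probe sets. Of the lists, the value was -2.54 for Cxcl1, -2.05 for Cxcl5, -0.52 for Ccl27a, -0.38 for Ccr9, 0.14 for Ccr6 and 0.41 for Ccr1l1. For Ccl27a it is that of the brighter probe set, and the other differed less in WTA. Of the genes with near profiles, it was -2.70 for Has2, -1.63 for Il13ra1, -1.31 for Mcoln2, -1.27 for St6galnac2 and -1.21 for Chodl. It was -1.15 for Bmp4, -1.15 for Il1rn, -1.07 for Ahsg, -1.04 for Il1r2 and -0.62 for Rbpj. These genes were picked for a profile like that of a member, so their opposite directions largely follow from that choice.

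Of the cell markers, it was 0.70 for Csf1r, 0.50 for Adgre1, 0.29 for Clec10a, 0.31 for Siglec1, -0.64 for Emcn, 0.44 for Sele and -0.11 for Pecam1.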

How the results depend on the processing

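The within-culture differences of the 9 members kept their sign under median centring and quantile normalization, with shifts from -0.22 to 0.08. Quantile normalization left 3 of the 5 members at least 1.5-fold higher in WT2, since Ccl8 (0.58) and Ccl11 (0.44) came under that limit. The 1 member higher in both cultures (Ccl8) became 0 with quantile normalization and at 2-fold. At 2-fold the other counts were 3 higher in WT2 and 1 lower in WTA. The members at least 1.5-fold higher on average, 2 with all arrays, numbered 1 to 4 with 1 array left out. No share over all probe sets was counted under these settings, and the choice of members used this contrast, so nothing is read from the counts. The streptozotocin fit had 0 probe sets past the threshold with the replicate block and under every other alternative run, and 0 members passed in the fit between the cultures under any alternative run.

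The count of 28 probe sets between the cultures became 8 with quantile normalization, 2 among the brighter probe sets, 13 with culture alone and 64 at an adjusted p of 0.1. With culture alone and 1 array left out (added after seeing the data) it was 0, without either WTA array, to 18. The cause of these changes was not tested. The fit with treatment on 3 arrays has no residual degrees of freedom, so it gave values with no test. In it the WTA minus WT2 difference ran from -0.48 to 0.71 for Ccl5, -0.15 to 1.63 for Ccl7, -0.13 to 2.07 for Ccl9 and -1.08 to 0.35 for Ccl11. For Ccl8 it stayed above 0 (0.56 to 1.09).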
